A study of Mus musculus with 6 samples.

Results

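The 9 genes described here belong to the transforming growth factor β (TGFβ) pathway and were measured in lungs of *ISM1*-/- and wild-type (WT) mice. They are the ligands *Tgfb1*, *Tgfb2* and *Tgfb3*, the receptors *Tgfbr1*, *Tgfbr2* and *Tgfbr3*, the signal transducer *Smad3*, the inhibitor *Smad7* and *Ltbp1*, which encodes a binding protein of the latent ligand. They were taken by gene name, with earlier results of these data known, and make up 9 of the 54532 genes in the deposited table. RNA came from perfused whole lungs of untreated mice aged 2 months, with 3 WT and 3 *ISM1*-/- mice and 1 library per mouse. WT mice were C57BL/6J animals bought from a supplier, whereas *ISM1*-/- mice were bred in-house on the C57BL/6J background, so the source of the animals and the genotype cannot be told apart. The libraries were strand-specific mRNA libraries, and counts per library summed to between 37606133 and 42345042.

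TGFβ is secreted as a latent complex, in which a propeptide holds the ligand inactive and a latent TGFβ binding protein tethers it to the extracellular matrix. Integrins and other factors release the ligand, which then joins the type II receptor TGFBR2 with the type I receptor TGFBR1. The active pair phosphorylates SMAD2 and SMAD3, which enter the nucleus with SMAD4 and control genes of matrix, contraction and growth arrest, among them *Smad7*, whose product turns the receptors off. In the lung, this pathway is known for its part in branching during development, in immune restraint and in airway remodeling and fibrosis.

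Of the 9 genes, *Smad7* was higher and *Tgfb3* was lower in *ISM1*-/- lungs, and the other 7 did not pass the test. *Smad7* rose by 0.40 on the log2 scale, to 132.1% of the WT mean, and *Tgfb3* fell by 0.31, to 80.9% of the WT mean. Genes were called at a Benjamini-Hochberg adjusted p under 0.1 in edgeR's quasi-likelihood test over the 18689 genes with at least 0.5 CPM (a gene's counts as a rate of all counts in the library) in at least 1 library. By this rule 4.72% of all genes tested were called (882 genes), of which 1.38% were higher and 3.34% lower in *ISM1*-/- lungs. The 3 libraries of each genotype did not overlap for 3 of the 9 genes, namely *Tgfb2*, *Tgfb3* and *Smad7*, beside 21.6% of all genes tested. The median log2 fold change of the 9 genes was 0.00, as was that of all genes tested. Both calls depended on single libraries, as given for each gene below.

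**Figure D1:**
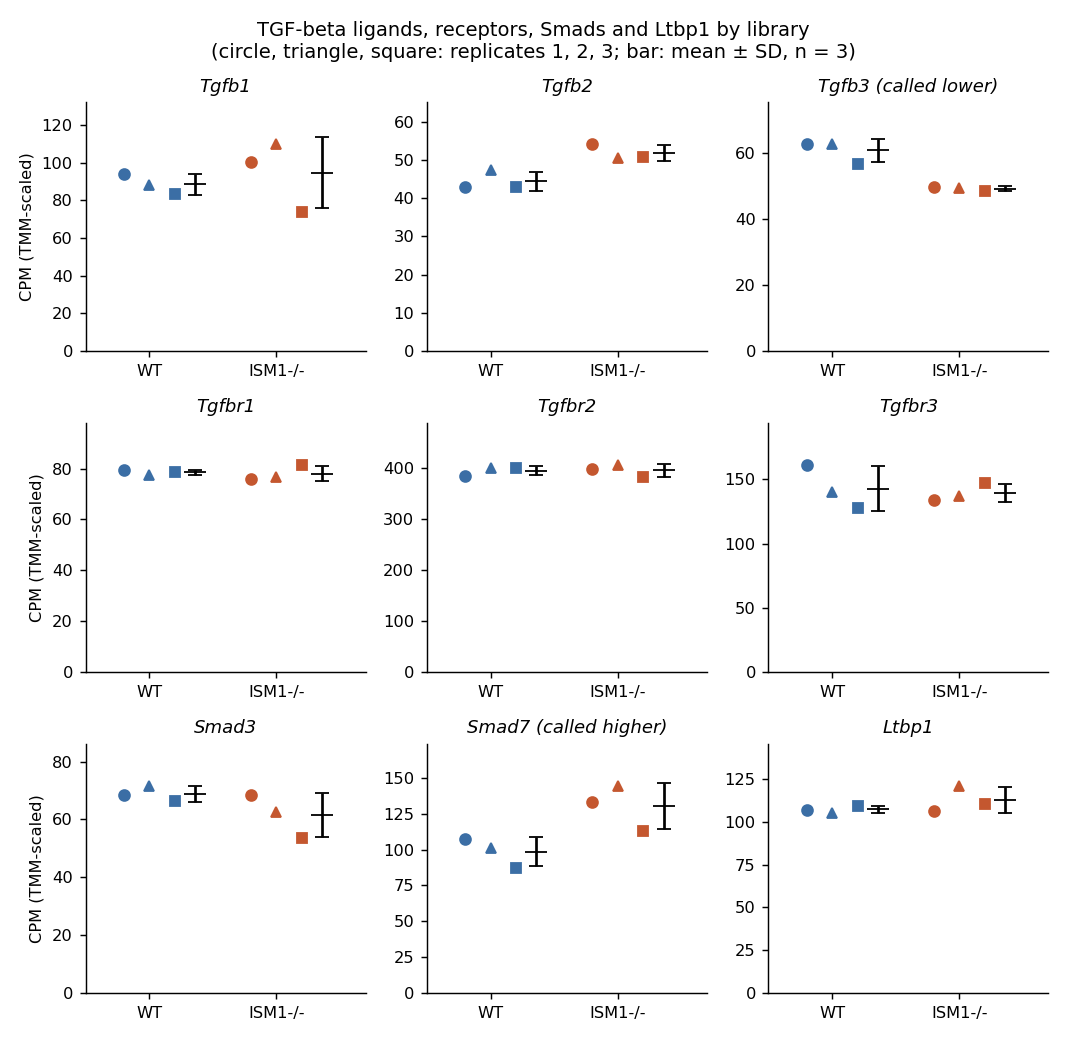
CPM scaled by TMM (vertical axes, each from 0) of the 9 genes in the 3 WT and 3 *ISM1*-/- libraries, with 1 point per mouse and a bar for the mean ± SD. The genotypes are separate for *Tgfb2*, *Tgfb3* and *Smad7* and overlap for the other 6 genes.

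Values in CPM below were scaled by TMM, which corrects each library total for differences in composition, and are given in the order of replicates 1, 2 and 3. The gene targeted in these mice was still detected. *Ism1* (ENSMUSG00000074766, chromosome 2, 139678178 to 139758581, plus strand, GRCm38) had 82.2, 77.5 and 76.9 CPM in WT and 65.5, 66.1 and 75.7 CPM in the libraries labelled *ISM1*-/-. The lowest WT library lay above the highest *ISM1*-/- library, but the log2 fold change of -0.19 (SE 0.0709) did not pass the test (adjusted p = 0.217). Without *ISM1*-/- replicate 3 it was -0.26 with an adjusted p of 0.0356. These are counts over the whole gene and do not show which exons the transcripts held, so the genotypes rest on the labels.

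The ligands were taken first. *Tgfb1* encodes TGFβ1, the isoform most studied in airway remodeling. The gene (ENSMUSG00000002603) lies on chromosome 7, from 25687002 to 25705077, on the plus strand. Its WT libraries had 94.1, 88.2 and 83.2 CPM and its *ISM1*-/- libraries 100.2, 110.0 and 74.0 CPM. The *ISM1*-/- libraries held both the highest and the lowest value of the 6, and their SD of 18.6 CPM exceeded the WT SD of 5.43 CPM. The log2 fold change was 0.10 (SE 0.124, 95% interval -0.18 to 0.38) with an adjusted p of 0.773. This result turned on replicate 3 of *ISM1*-/-. Leaving it out gave 0.25, which passed the test (adjusted p = 0.0839), and without *ISM1*-/- replicate 2 it was -0.02.

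*Tgfb2* encodes TGFβ2, an isoform whose binding to TGFBR2 is aided by the coreceptor TGFBR3. The gene (ENSMUSG00000039239) lies on chromosome 1, from 186622792 to 186705989, on the minus strand. WT libraries had 43.0, 47.2 and 43.0 CPM, and *ISM1*-/- libraries had 54.2, 50.5 and 50.8 CPM. All 3 *ISM1*-/- libraries lay above all 3 WT libraries, and the *ISM1*-/- mean was 116.7% of the WT mean. The log2 fold change was 0.22 (SE 0.0665, 95% interval 0.07 to 0.37), and its adjusted p of 0.125 missed the threshold. It passed with DESeq2 in place of edgeR (0.23, adjusted p = 0.0704) and without *ISM1*-/- replicate 3 (0.24, adjusted p = 0.0903).

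The promoters of *Tgfb1* and *Tgfb2* are shown because these ligands are transcribed from starts of unlike composition, and those of *Postn* and *Gdf10* because both genes, a target and a ligand of the family, passed the test (below). Each line gives the 250 bases before the start of the gene, 5′ to 3′ on the strand of the gene, from RefSeq on GRCm38.p6. Capitals mark matches, on either strand, to CAGACA and GTCTAGAC (motifs bound by SMAD3 and SMAD4), GGCGCC (a GC-rich SMAD motif), TATAAA (the box that the TATA-binding protein reads) and CACGTG (an E-box).
Tgfb1: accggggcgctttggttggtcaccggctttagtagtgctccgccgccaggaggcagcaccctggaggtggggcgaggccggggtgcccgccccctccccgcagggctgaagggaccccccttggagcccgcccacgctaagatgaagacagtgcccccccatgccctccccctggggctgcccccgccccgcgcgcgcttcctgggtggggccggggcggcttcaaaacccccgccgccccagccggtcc
Tgfb2: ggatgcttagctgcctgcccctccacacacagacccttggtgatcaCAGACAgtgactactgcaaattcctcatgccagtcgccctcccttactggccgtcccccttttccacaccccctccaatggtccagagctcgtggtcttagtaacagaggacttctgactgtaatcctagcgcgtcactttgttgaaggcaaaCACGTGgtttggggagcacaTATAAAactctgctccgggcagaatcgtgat
Postn: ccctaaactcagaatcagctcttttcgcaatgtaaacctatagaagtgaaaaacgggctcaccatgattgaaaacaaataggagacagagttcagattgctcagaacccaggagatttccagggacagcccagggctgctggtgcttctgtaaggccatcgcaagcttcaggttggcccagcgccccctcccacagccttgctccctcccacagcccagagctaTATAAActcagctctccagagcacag
Gdf10: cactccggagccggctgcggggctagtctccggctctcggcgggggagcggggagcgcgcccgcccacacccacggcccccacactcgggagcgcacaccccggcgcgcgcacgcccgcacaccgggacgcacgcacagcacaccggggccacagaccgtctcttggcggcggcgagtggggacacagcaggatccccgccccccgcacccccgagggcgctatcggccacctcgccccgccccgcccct
These windows are chr7:25686752-25687001 (plus strand) for *Tgfb1*, chr1:186705990-186706239 (minus strand) for *Tgfb2*, chr3:54360857-54361106 (plus strand) for *Postn* and chr14:33923337-33923586 (plus strand) for *Gdf10*. Of the 9 genes, 6 had a promoter entry, and *Tgfb3*, *Tgfbr3* and *Smad7* had none.

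The windows of *Tgfb1* and *Gdf10* were rich in G and C (75.2% and 78.8%) and held none of the 5 motifs. The windows of *Tgfb2* and *Postn* had 53.6% and 52.0% GC, near the median of 52.4% over all promoters of this length. In *Tgfb2*, CAGACA began 204 bases before the start, CACGTG 51 bases before it and TATAAA 31 bases before it. In *Postn*, TATAAA began 26 bases before the start. Over 32851 promoters, CAGACA was found in 17.1%, TATAAA in 12.4%, GGCGCC in 9.59%, CACGTG in 6.02% and GTCTAGAC in 0.167%. Only the full motifs as spelled above were searched, so shorter or variant forms were not marked. A match describes the letters and does not show that a factor binds there.

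*Tgfb3* encodes TGFβ3, an isoform known for its role in palate and lung development. The gene (ENSMUSG00000021253) lies on chromosome 12, from 86056745 to 86079041, on the minus strand. It was counted 2370, 2608 and 2199 times in WT lungs, beside 2118, 1874 and 1891 times in *ISM1*-/- lungs. These came to 62.9, 62.8 and 56.9 CPM against 49.8, 49.4 and 48.5 CPM. The *ISM1*-/- libraries were tightly grouped, with a coefficient of variation of 1.40%, and every one of them was below every WT library. Their mean was 49.2 ± 0.688 CPM, beside 60.9 ± 3.46 CPM in WT (SD, n = 3). The log2 fold change of -0.31 (SE 0.0636, 95% interval -0.45 to -0.16) passed the test with an adjusted p of 0.0407. It stayed between -0.35 and -0.28 when single libraries were left out, but the adjusted p rose to 0.168 without WT replicate 2, 0.134 without *ISM1*-/- replicate 1 and 0.137 without *ISM1*-/- replicate 2.

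*Tgfb3* shares 5149 bases with *Ttll5*, a tubulin-modifying enzyme gene on the opposite strand, and the strand setting of the counting is not given in the sources used here. *Ttll5* had 699 to 867 counts per library and a log2 fold change of 0.04 (adjusted p = 0.880). The other overlapping entries, *Gm37804* and *Gm48008*, reached at most 24 and 32 counts in a library. *Tgfb2* overlaps an antisense transcript, *Gm29491*, with 12 to 28 counts, and *Gm26169*, which had no count in any library.

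**Figure D2:**
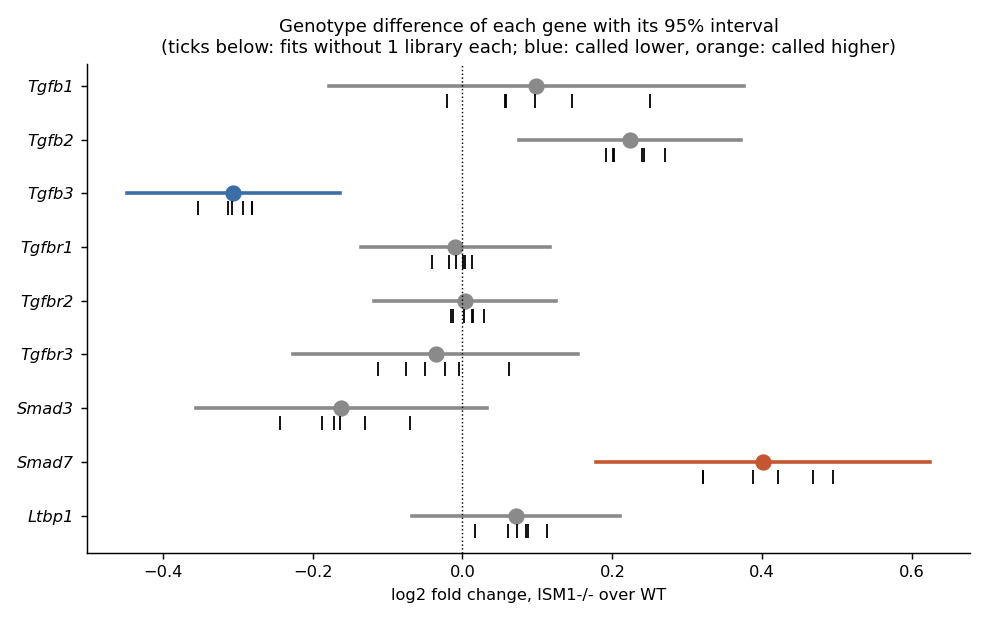
Log2 fold change, *ISM1*-/- over WT (horizontal axis), of the 9 genes, with a line for the 95% interval from edgeR and ticks below for the 6 fits that each leave out 1 library. *Smad7* (0.40) and *Tgfb3* (-0.31) are the genes called, *Tgfb2* (0.22) lies to the right of 0 with its whole interval, and the ticks of *Tgfb1* span -0.02 to 0.25.

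The receptor genes differed little. *Tgfbr1* encodes the type I receptor, the kinase that phosphorylates SMAD2 and SMAD3. The gene (ENSMUSG00000007613, chromosome 4, 47353222 to 47414931, plus strand) had 79.5, 77.6 and 78.7 CPM in WT and 76.0, 76.7 and 81.5 CPM in *ISM1*-/-. The genotypes overlapped, with a log2 fold change of -0.01 (95% interval -0.14 to 0.12, adjusted p = 0.961). *Tgfbr2* encodes the type II receptor, which binds the ligand first. The gene (ENSMUSG00000032440, chromosome 9, 116084293 to 116175360, minus strand) had 385, 400 and 400 CPM in WT and 398, 407 and 383 CPM in *ISM1*-/-. It had the most counts of the 9 genes, and its log2 fold change was 0.00 (95% interval -0.12 to 0.13, adjusted p = 0.986).

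*Tgfbr3* encodes betaglycan, a coreceptor without kinase activity that presents ligand to TGFBR2. The gene (ENSMUSG00000029287, chromosome 5, 107106570 to 107289629, minus strand) had 161, 140 and 127 CPM in WT and 134, 137 and 147 CPM in *ISM1*-/-. WT libraries spread more widely (coefficient of variation 12.1%) than *ISM1*-/- libraries (5.02%) and enclosed all of them. The log2 fold change was -0.04 (95% interval -0.23 to 0.15, adjusted p = 0.891). The 3 overlapping entries on the same strand, *Gm43422*, *Gm43423* and *Gm42900*, had at most 19 counts in a library. The intervals bound a rise or fall of the type I and type II receptors more tightly than one of *Tgfbr3*.

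*Smad3* encodes a transcription factor that carries the signal of the active receptors to the nucleus. The gene (ENSMUSG00000032402, chromosome 9, 63646767 to 63757994, minus strand) had 68.5, 71.7 and 66.4 CPM in WT and 68.5, 62.5 and 53.7 CPM in *ISM1*-/-. The *ISM1*-/- libraries ranged from level with WT to well below it, so that their SD of 7.45 CPM exceeded the WT SD of 2.68 CPM. Its difference of -0.16 on the log2 scale (SE 0.0868, 95% interval -0.36 to 0.03) did not pass the test (adjusted p = 0.414).

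*Smad7* encodes the inhibitory SMAD that blocks the type I receptor, and it is itself a gene that TGFβ and other signals switch on. The gene (ENSMUSG00000025880) lies on chromosome 18, from 75367529 to 75395935, on the plus strand. It was counted 4044, 4202 and 3379 times in WT lungs, beside 5657, 5485 and 4416 times in *ISM1*-/- lungs. These came to 107.3, 101.2 and 87.4 CPM against 133, 145 and 113 CPM. All *ISM1*-/- libraries lay above all WT libraries, although replicate 3 of *ISM1*-/- was close to replicate 1 of WT. The means were 98.6 ± 10.2 CPM in WT and 130.3 ± 15.9 CPM in *ISM1*-/- (SD, n = 3). The log2 fold change of 0.40 (SE 0.0999, 95% interval 0.18 to 0.62) passed with an adjusted p of 0.0719, and it was the largest of the 9 in size. When 1 library was left out it ranged from 0.32 to 0.49. The adjusted p rose above the threshold without WT replicate 2 (0.183), WT replicate 3 (0.199), *ISM1*-/- replicate 1 (0.213) or *ISM1*-/- replicate 2 (0.224).

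*Ltbp1* encodes a latent TGFβ binding protein, which anchors the latent ligand in the matrix. The gene (ENSMUSG00000001870, chromosome 17, 75005568 to 75392512, plus strand) had 107.1, 105.3 and 109.0 CPM in WT and 106.4, 121.0 and 110.4 CPM in *ISM1*-/-. Replicate 2 of *ISM1*-/- was the highest of the 6 libraries, while replicate 1 lay between the WT values. Its fold change on the log2 scale was 0.07 (95% interval -0.07 to 0.21) with an adjusted p of 0.647.

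Over the 9 genes, the number called was therefore 2 with all libraries, and it varied with the library left out. It was 0 without WT replicate 2, without *ISM1*-/- replicate 1 and without *ISM1*-/- replicate 2. It was 1 without WT replicate 3 and 2 without WT replicate 1. Without *ISM1*-/- replicate 3 it was 4, namely *Tgfb1*, *Tgfb2*, *Tgfb3* and *Smad7*. The calls over all genes moved in the same fits, from 882 with all libraries. They were 150 without WT replicate 2, 247 without *ISM1*-/- replicate 1 and 261 without *ISM1*-/- replicate 2. They were 341 without WT replicate 3, 671 without WT replicate 1 and 1470 without *ISM1*-/- replicate 3. None of the 9 genes changed by 2-fold, a size that 0.567% of all genes tested reached together with an adjusted p under 0.1 (106 genes).

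Levels between genes were compared per length, since long transcripts gather more fragments. The deposited values in fragments per kilobase of gene length and library size (FPKM), averaged over the 6 libraries, placed *Tgfb1* first (74.1 ± 10.6 FPKM), followed by *Smad7* (70.5 ± 13.0) and *Tgfbr2* (68.4 ± 1.97). The ranges of these 3 genes over the 6 libraries overlapped, so their order does not exceed the spread. In FPKM, the order of *Smad7* and *Tgfbr2* turned with genotype, which restates the call of *Smad7*. *Smad7* had 66.3, 62.4 and 54.0 FPKM in WT, below the 66.8, 69.2 and 69.4 FPKM of *Tgfbr2* in the same libraries. In *ISM1*-/- lungs it had 82.4, 89.2 and 68.7 FPKM, above the 69.2, 70.5 and 65.2 FPKM of *Tgfbr2*. *Tgfbr3* (51.3 ± 4.27 FPKM) and *Smad3* (45.7 ± 4.74) came next and overlapped each other. *Tgfbr3* also overlapped *Smad7*, but not *Tgfb1* or *Tgfbr2*, and *Smad3* did not overlap *Tgfbr1* below it. *Tgfbr1* (31.2 ± 0.644 FPKM), *Ltbp1* (30.1 ± 1.58) and *Tgfb2* (26.3 ± 2.45) followed, and each overlapped its neighbor. *Tgfb3* was the lowest at 16.3 ± 2.04 FPKM and lay below *Tgfb2* in every library.

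This order depends on the gene length behind the values. The length that the deposited FPKM implies is 1236 bases for *Tgfb1* and 3383 bases for *Tgfb3*, whereas the length listed for these genes in the deposited table is 5042 and 3383 bases. For all but *Ltbp1* of the 9 genes, the implied length was within 1 base of the mean length of the annotated transcripts in GENCODE M21. The listed length was taken as that of all exons merged, which was not checked, and is called merged exons below. TMM-scaled CPM per kilobase of merged exons placed *Tgfbr2* first (48.3 ± 1.16), clear of *Smad7* (25.3 ± 4.65), *Tgfbr3* (21.6 ± 1.82), *Tgfb1* (18.2 ± 2.52) and *Tgfb3* (16.3 ± 1.99). Each of the last 4 overlapped the next. Below them came *Tgfbr1* (11.99 ± 0.310), *Smad3* (11.8 ± 1.16) and *Ltbp1* (10.5 ± 0.551), which overlapped in turn, and *Tgfb2* was lowest at 8.31 ± 0.785. The place of *Tgfb3* relative to *Tgfb2* thus changed with the length used. By merged exons *Tgfbr2* (46.8 to 49.7) lay above *Smad7* (19.3 to 32.0) in both genotypes. The turn of these genes with genotype was therefore seen only in FPKM.

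**Figure D3:**
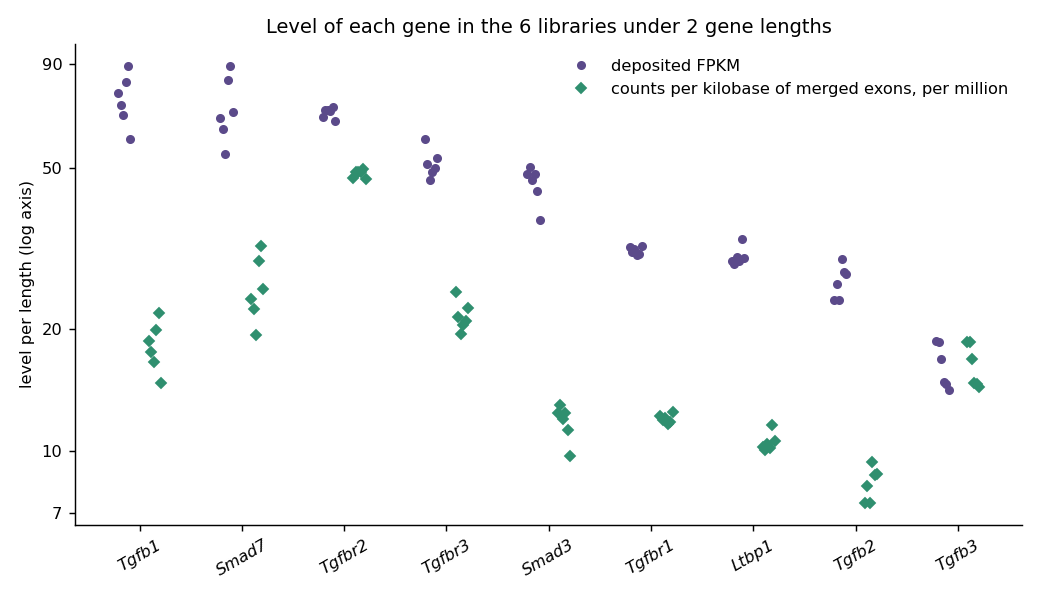
Level per length (log axis) of the 9 genes in the 6 libraries, as deposited FPKM (circles) and as TMM-scaled CPM per kilobase of merged exons (diamonds), with genes in the order of mean FPKM. *Tgfb1* is first by FPKM (mean 74.1) and ranks 4 by merged exons (18.2), while *Tgfb3* is at 16.3 by both.

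The makeup of the ligand RNA was compared between the genotypes as the share of each ligand in the summed level of the 3. In deposited FPKM, *Tgfb1* made up 62.8% ± 1.41 in WT and 63.7% ± 4.62 in *ISM1*-/- lungs (SD, n = 3). *Tgfb3* made up 15.7%, 16.1% and 15.6% of the sum in WT, beside 11.7%, 11.1% and 14.0% in *ISM1*-/-. Here the genotypes did not overlap. *Tgfb2* had 21.4% ± 1.29 in WT and 24.0% ± 3.10 in *ISM1*-/-, with overlap. By merged exons *Tgfb2* had 16.6%, 18.4% and 18.2% in WT and 21.3%, 19.3% and 23.2% in *ISM1*-/-, without overlap, so its separation depends on the length used. With the same lengths, *Tgfb1* and *Tgfb3* had nearly equal shares in WT (40.6% ± 1.12 and 41.6% ± 0.378), and in *ISM1*-/- lungs they had 44.1% ± 4.83 and 34.6% ± 2.95. The lower share of *Tgfb3* in all *ISM1*-/- libraries appeared with both lengths and restates the call given above. No test was run on the shares.

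**Figure D4:**
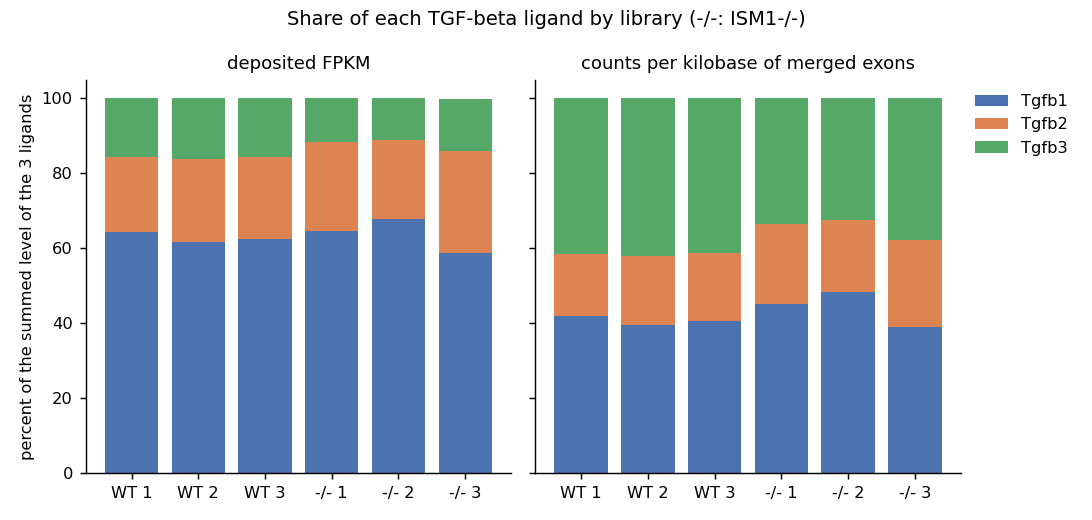
Percent of the summed level of the 3 TGFβ ligands (vertical axis) taken by each ligand in the 6 libraries, by deposited FPKM (left) and by CPM per kilobase of merged exons (right). *Tgfb3* takes 15.6% to 16.1% in WT and 11.1% to 14.0% in *ISM1*-/- on the left, and a larger share in every library on the right.

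The rest of the pathway was read from 5 lists, also chosen with earlier results of these data known. They held 96 genes, of which 95 were tested (*Nog*, a BMP antagonist, was too low). Of these 95 genes, 3 were higher and 4 lower in *ISM1*-/- lungs, which is 7 calls beside 4.72% of all genes. Their median log2 fold change was 0.02, and the genotypes did not overlap for 18 of them, a share below the 21.6% of all genes tested. The 7 calls fell in 2 of the lists, the target genes and the bone morphogenetic protein (BMP) and activin branch, and whether these lists differ from the other 3 was not tested. The genotypes did not overlap for 6 of 24 target genes and 9 of 33 genes of that branch. In the other lists this held for 2 of 16, 1 of 7 and 0 of 15 genes.

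Among 16 genes of latency and activation, none passed the test, with a median of 0.02 and a range of -0.10 to 0.22. *Itgb1*, an integrin subunit that pairs with the αv chain to bind latent TGFβ, had 857 ± 33.5 CPM in WT and 988 ± 96.8 CPM in *ISM1*-/- (0.20, adjusted p = 0.218). *Itgb3*, another β subunit, had 41.7 ± 5.64 and 48.6 ± 2.65 CPM (0.22, adjusted p = 0.307). These were the 2 genes of the 16 whose genotypes did not overlap, a smaller share than the 21.6% of all genes tested. The binding proteins *Ltbp4* and *Ltbp3* had log2 fold changes of -0.07 and 0.08 (adjusted p = 0.798 and 0.695).

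None of the 7 receptor partners passed the test either (median 0.02). *Acvrl1* and *Eng* encode the type I receptor and the coreceptor through which endothelium reads TGFβ and BMP9. They had 736 ± 35.5 and 707 ± 34.2 CPM in WT and 766 ± 56.9 and 670 ± 57.4 CPM in *ISM1*-/-, with adjusted p of 0.764 and 0.686. *Fkbp1a*, whose product holds the type I receptor inactive, had a log2 fold change of 0.02 (adjusted p = 0.919). *Bambi*, a receptor without a kinase that dampens signaling, had 22.6 ± 1.45 CPM in WT and 19.8 ± 1.27 CPM in *ISM1*-/- without overlap (-0.19, adjusted p = 0.275). *Cd109*, a coreceptor that restrains TGFβ signaling, was near 2 CPM, and its log2 fold change was -0.41 (SE 0.229, adjusted p = 0.438).

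The 15 SMAD partners and brakes had the narrowest range of the 5 lists, from -0.02 to 0.14, and none passed the test. *Smad6*, the inhibitory SMAD of the BMP branch and the closest relative of *Smad7*, had 222 ± 23.1 CPM in WT and 221 ± 24.0 CPM in *ISM1*-/- (-0.01, 95% interval -0.22 to 0.20, adjusted p = 0.983). *Smurf2*, a ubiquitin ligase that SMAD7 brings to the receptor, had 205 CPM in both genotypes (adjusted p = 0.9996). The repressors *Ski* and *Skil* had 0.03 and 0.14 (adjusted p = 0.857 and 0.479), and *Ppm1a*, a phosphatase of SMAD2 and SMAD3, had 0.09 (adjusted p = 0.519).

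**Figure D5:**
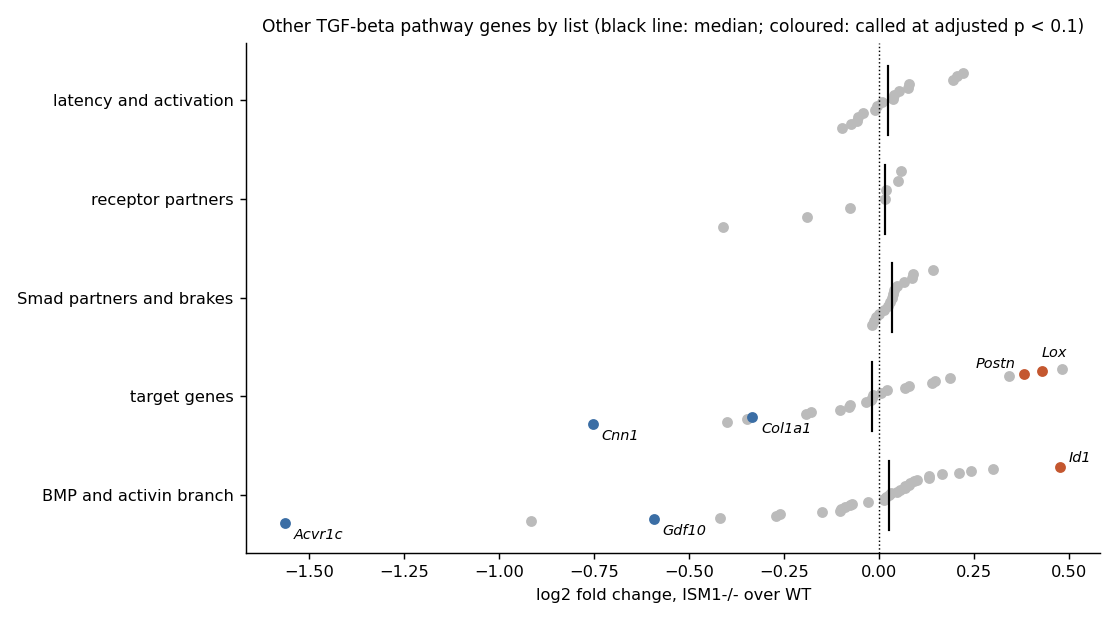
Log2 fold change, *ISM1*-/- over WT (horizontal axis), of the 95 tested genes of the 5 pathway lists, with 1 point per gene, a black line at the median of each list and color for the 7 genes called. The medians lie between -0.02 and 0.03, and the calls stand in the target genes (2 higher, 2 lower) and in the BMP and activin branch (1 higher, 2 lower).

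Of 24 target genes of TGFβ, 2 were higher and 2 lower, with a median log2 fold change of -0.02. *Postn*, a matrix protein deposited during remodeling, had 393, 335 and 356 CPM in WT and 438, 473 and 501 CPM in *ISM1*-/- (0.38, SE 0.0755, adjusted p = 0.0351). *Lox*, the enzyme that crosslinks collagen, had 56.1, 55.2 and 50.4 CPM in WT and 64.6, 69.7 and 83.3 CPM in *ISM1*-/- (0.43, SE 0.0936, adjusted p = 0.0478). *Col1a1*, a chain of type I collagen, went the other way, with 385, 401 and 397 CPM in WT and 315, 344 and 280 CPM in *ISM1*-/- (-0.33, SE 0.0752, adjusted p = 0.0517). *Cnn1*, calponin of contractile cells, had 37.58, 40.8 and 38.9 CPM in WT and 17.5, 21.5 and 30.6 CPM in *ISM1*-/- (-0.75, SE 0.163, adjusted p = 0.0466). Targets of matrix thus stood among both the higher and the lower genes.

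The most abundant genes of the list, which encode collagen and fibronectin, did not pass. *Col3a1* had 676 ± 43.7 and 678 ± 27.8 CPM (0.01, adjusted p = 0.985). *Col1a2*, the other chain of type I collagen, had 451 ± 7.28 and 398 ± 26.3 CPM without overlap (-0.18, adjusted p = 0.180). *Fn1*, fibronectin, had 531 ± 13.3 and 465 ± 22.0 CPM without overlap (-0.19, adjusted p = 0.135), and it passed with DESeq2 (adjusted p = 0.0589) and without the filter on low counts (0.0809). Of the calls, *Postn* was lost without WT replicate 2 (adjusted p = 0.145), WT replicate 3 (0.117) or *ISM1*-/- replicate 2 (0.128). *Lox* was lost without the same libraries (0.142, 0.154 and 0.128). *Col1a1* was lost without WT replicate 2 (0.183), WT replicate 3 (0.145) or *ISM1*-/- replicate 1 (0.165). *Cnn1* was lost without any of WT replicates 2 and 3 and *ISM1*-/- replicates 1 and 2, with adjusted p from 0.109 to 0.163.

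In the BMP and activin branch, 1 of 33 tested genes was higher and 2 were lower (median 0.02). Of this branch, the BMP arm signals largely through SMADs other than SMAD2 and SMAD3. *Gdf10*, a BMP-like ligand, was counted 457, 454 and 429 times in the WT libraries, beside 295, 298 and 306 in the *ISM1*-/- libraries. Each genotype was tightly grouped, with means of 11.4 ± 0.642 and 7.54 ± 0.526 CPM, and the log2 fold change of -0.59 (SE 0.1003, adjusted p = 0.0217) passed in all 6 fits that left out 1 library. *Id1*, a direct target of BMP signaling in endothelium, had 43.1, 55.1 and 56.2 CPM in WT and 75.0, 69.6 and 70.2 CPM in *ISM1*-/- (0.47, SE 0.0966, adjusted p = 0.0375). It was lost without WT replicate 2 (0.107), *ISM1*-/- replicate 1 (0.139) or *ISM1*-/- replicate 2 (0.118). *Acvr1c*, the type I receptor ALK7 known from adipose tissue, was counted 73, 50 and 44 times in the WT libraries, beside 13, 17 and 27 in the *ISM1*-/- libraries (-1.56, SE 0.350, adjusted p = 0.0505). It was lost without WT replicate 1 (0.129), WT replicate 2 (0.124), *ISM1*-/- replicate 1 (0.172) or *ISM1*-/- replicate 2 (0.163). The abundant genes of this branch did not pass: *Bmpr2*, the type II BMP receptor, had 0.03 (adjusted p = 0.893), *Bmp6*, a BMP ligand, -0.07 (0.670) and *Fstl1*, a secreted antagonist, 0.08 (0.626).

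In whole lung, fewer cells of a type and less RNA per cell cannot be told apart, so marker genes of cell types were read in the same libraries. Alveolar type 2 markers summed to between 19529 and 21169 CPM in every library, as lung should show, and no marker was listed at 0 in all libraries. Of 7 fibroblast markers, 4 were lower in *ISM1*-/- (*Dcn*, *Lum*, *Pi16* and *Dpt*). *Pdgfra*, *Tcf21* and *Col13a1* were not called, with log2 fold changes of 0.08, 0.17 and -0.02. The summed level overlapped at 840 to 917 CPM in WT and 778 to 892 CPM in *ISM1*-/-. The fall of the 4 markers stands beside the lower *Tgfb3*, *Col1a1* and *Gdf10*, and its part in them was not tested. None of 5 smooth muscle markers was called, with sums of 374 to 453 CPM in WT and 324 to 392 CPM in *ISM1*-/-, beside the lower *Cnn1*. All 5 had negative log2 fold changes, from -0.59 to -0.09, and *Actg2* (-0.59, adjusted p = 0.108) did not overlap between the genotypes. *Acta2*, a contractile gene of the target list, had -0.35 (adjusted p = 0.121). The part of smooth muscle in the lower *Cnn1* was not tested. All 6 adipocyte markers were lower, with sums of 169 to 207 CPM in WT and 36.4 to 93.6 CPM in *ISM1*-/-, and their part in the lower *Acvr1c* was not tested.

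For the higher *Smad7* and *Id1*, the 5 endothelial markers summed to 3537 to 3707 CPM in WT and 3845 to 4042 CPM in *ISM1*-/- without overlap, although none of the 5 was called. All 4 B cell and plasma cell markers and 3 of 4 neutrophil markers were higher, with sums of 64.4 to 71.9 against 92.2 to 143 CPM and of 19.97 to 27.5 against 44.5 to 84.8 CPM. The part of these cells in the *Smad7* and *Id1* values was not tested. Cardiomyocyte markers (1 of 7 lower) stood apart in WT replicate 1, at 1500.3 CPM beside 483 and 574 CPM in the other WT libraries and 261 to 514 CPM in *ISM1*-/-. Without that library *Tgfb3* and *Smad7* were still the 2 genes called of the 9, and the count over the pathway lists was 10, beside 671 over all genes. In the remaining lists, 2 of 4 ciliated cell markers were lower and 1 of 4 alveolar type 1 markers was higher, while no macrophage, platelet, T cell or mesothelial marker was called.

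By the likeness of the 6 libraries (correlation of log2 CPM over 10832 genes averaging 10 CPM or more), the genes most like *Tgfb3* were *Gli1*, *Srcin1* and *Tecpr2*. Pearson's r with *Tgfb3* was 0.998 for *Gli1* and 0.997 for both others, and 78 genes had r over 0.95. *Gli1*, a transcription factor of hedgehog signaling, had a log2 fold change of -0.41 (adjusted p = 0.0535). *Srcin1* and *Tecpr2* had -0.27 and -0.26 (adjusted p = 0.0606 and 0.0706), so these genes were called lower too. The genes most like *Smad7* were *4931406P16Rik*, *Mboat2* and *Fmnl3* (r = 0.990, 0.988 and 0.987), with 35 genes over 0.95, and none of these 3 was called (adjusted p from 0.157 to 0.267). These values are a description over 6 libraries that include both genotypes. A gene picked for its likeness to a called gene therefore tends to share its genotype difference, which is no separate result.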

How the data were processed

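RNA-seq libraries of perfused whole lungs from 3 WT and 3 *ISM1*-/- mice were analyzed, grouped by the labels. The authors mapped read pairs with STAR to GRCm38 (mm10) and deposited raw read counts per gene, which are whole numbers without normalization. The authors also deposited FPKM values, scaled by library total and a gene length. Tool versions, the counting program, its annotation and its strand setting are not given in the sources used here.

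Counts were analyzed in R 4.3.3 with edgeR 4.0.16 (TMM, glmQLFit, glmQLFTest, no covariates), with p-values adjusted over 18689 genes. SE is the log2 fold change divided by the root of its F statistic. DESeq2 1.42.0, other scalings, filters and thresholds, a replicate block and leaving out each library were alternatives. Named genes were the 9 members, called genes of the lists, the 3 with the highest mean CPM per list and, in lists without a call, the 2 with the smallest p, overlapping genes, the 3 most alike genes per called member, and markers that moved. The members and lists were chosen with earlier results of these data known. The fit was tested on simulated counts. A chi-square test of counts found each of the 6 pairs of libraries within a genotype further apart than sampling allows. It cannot show that libraries came from different mice, for which the paper's description of them as biological replicates was followed. Promoters came from RefSeq (GRCm38.p6), and no protein sequences were used.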

Additional observations from a re-analysis of the deposited data

How the results depend on the processing

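The 882 calls over all genes became 1285 with DESeq2 and 1632 without a filter on low counts. They became 455 at an adjusted p under 0.05 and 106 with a 2-fold change. When 1 library was left out, they lay between 150 and 1470. Of the 9 genes, the 2 calls became 3 with DESeq2, 1 at an adjusted p under 0.05 and 0 with a 2-fold change. They lay between 0 and 4 when 1 library was left out. The 7 calls of the pathway lists became 12 with DESeq2, 13 without the filter and 1 with a 2-fold change, and between 1 and 12 when 1 library was left out. The share of *Tgfb1* in ligand FPKM, 63.3% over all libraries, was 42.4% by merged exons and 62.4% to 64.2% without 1 library. Genes near 0 changed sign: *Tgfbr2* was -0.0039 by library totals and -0.0029 without the filter, *Col3a1* was -0.0026 and -0.0015, and *Smurf2* was -0.0081 and -0.0066, and -9e-04 with a mean above 2 CPM. Without 1 library, log2 fold changes ranged from -0.0213 to 0.2497 for *Tgfb1*, -0.0403 to 0.0122 for *Tgfbr1*, -0.0156 to 0.0289 for *Tgfbr2*, -0.1122 to 0.0624 for *Tgfbr3*, -0.1501 to 0.046 for *Ltbp4*, -0.0094 to 0.0391 for *Fkbp1a*, -0.0037 to 0.0755 for *Ski*, -0.0904 to 0.0729 for *Smad6*, -0.022 to 0.0374 for *Smurf2*, -0.027 to 0.0601 for *Col3a1* and -0.0452 to 0.0824 for *Bmpr2*. Of 117 values for the 9 genes, 98 kept direction and side of the threshold. The cause of these changes was not tested.

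Mice that share a replicate number are different animals, and the deviations of same-numbered libraries correlated at 0.0026, 0.0109 and 0.204. WT replicate 3 correlated best with its own number, and WT replicates 1 and 2 did not. With 3 libraries per genotype, these correlations cannot decide whether the numbers pair the mice. The main fit had no block. With the replicate block, 1105 genes, 2 of the 9 genes and 12 genes of the pathway lists were called, and *Smurf2* was -6e-04. In that edgeR fit *Smad7* was 0.40 (SE 0.0613, adjusted p = 0.0155) and *Tgfb3* was -0.30 (SE 0.0628, adjusted p = 0.0358).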

Other observations

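The gene length behind the deposited FPKM was read from counts and FPKM for 17988 genes with at least 100 counts in all. Of the 17973 with a GENCODE M21 entry, 95.44% had a length within 1 base of the mean length of their annotated transcripts. The listed length equaled the FPKM length in 3994 genes to within 1 base, and the median ratio of listed to FPKM length was 2.04. For *Tgfb1*, *Smad3* and *Tgfb2*, the deposited FPKM was 4.08, 3.88 and 3.17 times the level per kilobase of merged exons, and for *Tgfb3*, with 1 annotated transcript, both used a length of 3383 bases.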
